A study of Mus musculus with 6 samples.

Results

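Nuclear genes for the subunits of mitochondrial oxidative phosphorylation were compared between the tissue ventral and the tissue dorsal to the embryonic mouse aorta. None of them passed the test, and most differed by well under 2-fold with intervals that exclude a 2-fold difference. The genes were chosen by name: rows whose symbol starts with 1 of 15 prefixes for subunits of the 5 complexes (Ndufa, Ndufb, Ndufc, Ndufs and Ndufv for complex I, Sdha, Sdhb, Sdhc and Sdhd for II, Uqcr for III, Cox4i, Cox5, Cox6 and Cox7 for IV, Atp5 for V). Of 24973 probe sets, 88 matched a prefix, and 8 assembly factors named Ndufaf were left out, which leaves 80 genes. They comprised 34 subunits of complex I, 4 of II, 7 of III, 16 of IV and 13 of V, together with 4 assembly factors of complex II (Sdhaf1 to Sdhaf4) and 2 pseudogenes (Ndufs5-ps and Atp5c1-ps) that share a prefix. Current RefSeq symbols picked the same 80 rows. Ndufs5, Ndufb4, Uqcrb, Cox7c, Atp5g1, Atp5g2, Atp5j2 and Atp5l were not analysed here.

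The 6 arrays came from unfixed, frozen C57BL/6 embryos of embryonic day 11.5, a stage at which blood stem cells emerge from the aorta. No group carried a transgene or a treatment. Dorsal tissue (3 arrays) was the tissue between the notochord and the aortic roof, and ventral tissue (3 arrays) lay directly beneath the vessel, both cut by laser from stained cryosections of the same embryos. RNA in picogram amounts was amplified before hybridisation to Affymetrix Mouse Gene 2.0 ST arrays, and the labels call the 3 arrays of a tissue biological replicates without giving the number of embryos in each. The study concerns the niche of blood stem cells below the aorta. Values below are log2 levels of 1 probe set per gene, in the order of replicates 1, 2 and 3, and a difference is ventral minus dorsal on the log2 scale, with its standard error (SE) from limma and an n of 3 arrays per tissue. Levels of different probe sets are not comparable with each other.

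Oxidative phosphorylation couples the oxidation of NADH and succinate to ATP synthesis across the inner mitochondrial membrane. Complexes I and II pass electrons to ubiquinone, complex III passes them to cytochrome c, and complex IV passes them to oxygen. Complexes I, III and IV pump protons, and complex V, the ATP synthase, uses the proton gradient. Complexes I, III, IV and V also hold subunits encoded by mitochondrial DNA, so their assembly needs both genomes, whereas complex II is wholly nuclear. Several subunits of complex IV come in paired isoforms, one found in most tissues and one restricted to muscle, testis or lung or induced by low oxygen.

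Nuclear subunit genes are textbook targets of the transcription factors NRF1 and GABP (an ETS factor), and the promoters were searched for their recognition letters because such sites are a known shared feature of the family. RefSeq (GRCm38.p6) gave 66 promoters for 61 of the 74 subunit genes, each 250 bases before a transcription start, read on both strands. The NRF1 letters GCGCANGCG were found in 10 of the 61 genes (16.4%), against 12.9% of the 8910 other genes tested here and 7.97% of 17430 other protein-coding genes. The ETS letters CCGGAAG were found in 11 genes (18.0%), against 15.5% of the other tested genes, and either motif in 18 genes (29.5%, against 26.1%). The YY1 letters AANATGGCG matched in 3 genes and the estrogen-related receptor letters TNAAGGTCA in 1. An NRF1 match on one strand can overlap a match on the other, since the letters are close to palindromic. These shares describe sequence and show no binding. The sites below were picked to show the matches across all 5 complexes. They are read on the strand of the gene, with the matched letters in capitals.
Sdha, NRF1 letters, minus strand, chr13:74350320-74350348: cgtttacaggGCGCAGGCGcaccaccact
Sdha, NRF1 letters, minus strand, chr13:74350277-74350305: ggggcgtgttGCGCAGGCGcagaatcttc
Sdhd, NRF1 letters, minus strand, chr9:50603910-50603938: tcgctggggtGCGCACGCGcggtggcagc
Ndufa5, NRF1 letters, minus strand, chr6:24527698-24527726: tgtgtgagctGCGCAGGCGcaaatctacc
Cox6a1, NRF1 letters, minus strand, chr5:115349057-115349085: cggataaagtGCGCAGGCGctggagttcc
Atp5k, NRF1 letters, minus strand, chr5:108434431-108434459: tttcactgcgGCGCATGCGcctttctggc
Uqcr11, ETS letters, minus strand, chr10:80406871-80406897: tctctcctccCCGGAAGtagatgtcaa
Cox6b1, ETS letters on the opposite strand, minus strand, chr7:30626126-30626152: cctctcgcagCTTCCGGccagtcggaa

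Genes with the NRF1 letters did not stand apart in the arrays. The 9 of them that were tested (Ndufs6, Ndufa11, Ndufa8, Ndufa5, Sdha, Sdhd, Cox6a1, Atp5c1 and Atp5k) had differences of −0.21 to 0.01 and a median of −0.0197. The 48 tested subunit genes whose promoters lack the letters had a median of −0.0373. The factors themselves were also close to level: the difference was −0.03 ± 0.19 (SE) for Nrf1, −0.09 ± 0.17 for Gabpa, 0.06 ± 0.17 for Yy1 and 0.09 ± 0.18 for Esrra, the estrogen-related receptor alpha.

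Over the whole array, 12028 named genes reached the median level of all probe sets (4.52) and were tested. At an adjusted p under 0.05, 62 of them were called (0.515%), 37 ventral and 25 dorsal, and the smallest called fold was 2.50. Markers of the dissected sites gave these calls. In a list of 10 tested sclerotome and cartilage genes, 2 were called dorsal: Pax1 (−2.60 ± 0.24 SE, limma adjusted p = 0.0183) and Col2a1. In a list of 7 tested coelomic epithelium genes, Tcf21 and Gata6 were called ventral, Tcf21 with a dorsal mean of 3.95, under the filter level, so that it entered the test only through its ventral arrays. Endothelial, macrophage, erythroid, neuronal and striated muscle lists had 0 called genes by limma, with 5 of 13, 3 of 14, 6 of 10, 7 of 11 and 2 of 9 tested genes at an unadjusted p under 0.05. These are shares of 38.5%, 21.4%, 60.0%, 63.6% and 22.2%, against 10.7% of all genes tested. The mean of the erythroid list was 7.79 to 7.91 on dorsal arrays and 7.10 to 7.43 on ventral arrays, which do not overlap. In pieces of whole tissue, fewer cells of a type and less RNA per cell cannot be told apart. The part of any cell type in the differences below was not tested.

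Of the 80 oxidative phosphorylation genes, 75 reached the filter level and none passed the limma test, with adjusted p between 0.257 and 0.998. Without adjustment, 6 had a p under 0.05 (8.0%), against 10.7% of all genes tested. The 3 ventral and 3 dorsal arrays did not overlap for 11 genes (14.7%), 5 with ventral above and 6 with ventral below. Over all genes the arrays did not overlap for 15.4%, with ventral above in 7.5% and below in 7.88%. Thus the counts lie near or under the background and single out no direction. By sign, 28 differences were positive and 47 negative (62.7%, against 52.3% negative over all genes), and the median was −0.0429 against −0.0149 over all genes. The sign was the same in all 3 pairs for 25 genes (33.3%, against 32.3% over all genes), 7 positive and 18 negative.

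**Figure D1:**
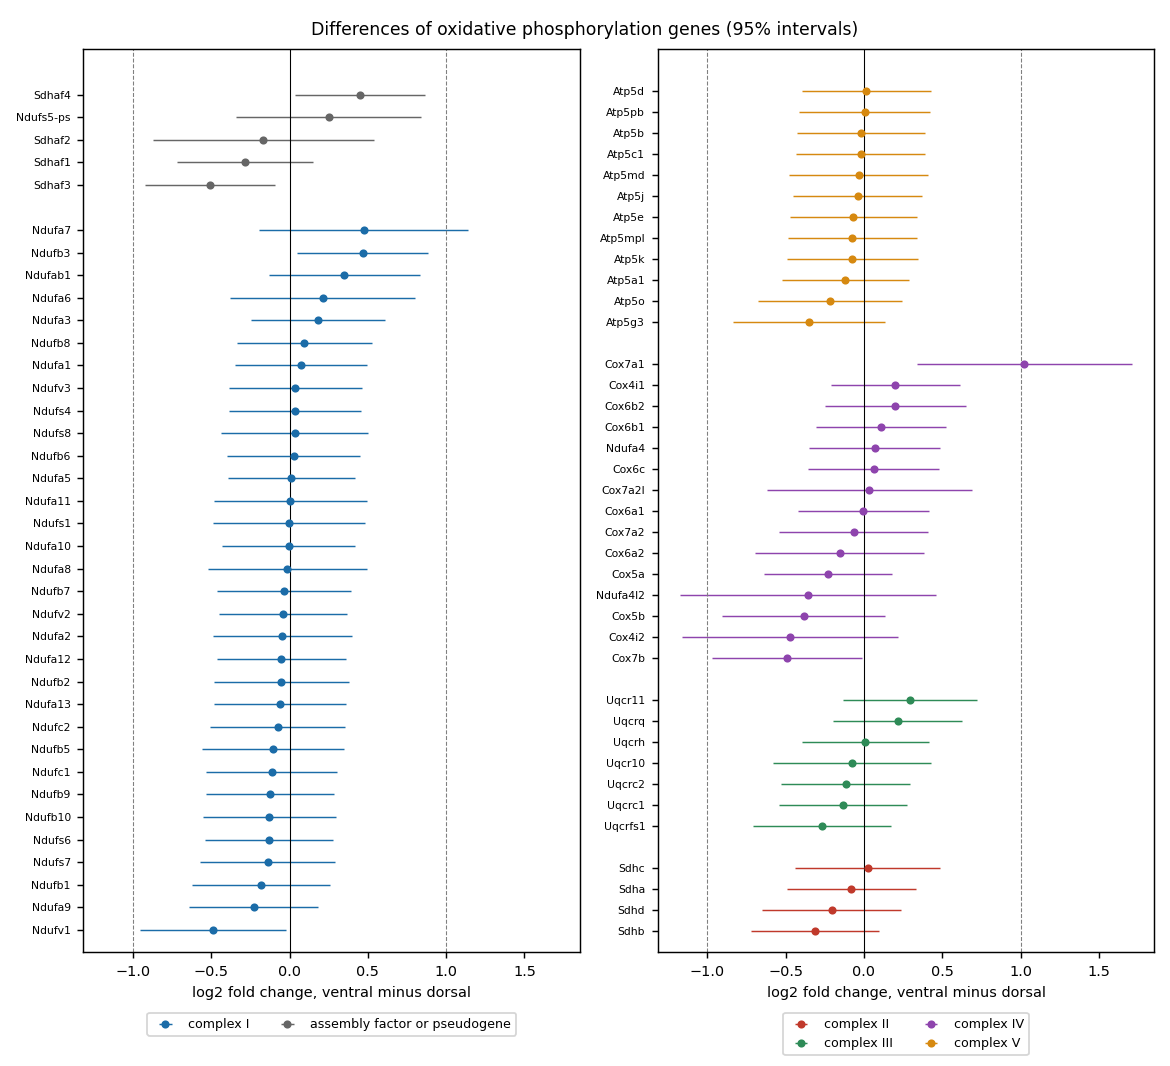
Difference between ventral and dorsal tissue (log2, horizontal axis) for the 75 tested genes, ordered within each complex; points are limma estimates from 3 arrays per tissue and bars their 95% intervals, with dashed lines at 2-fold. The intervals of 71 genes lie between the dashed lines, and those of Cox7a1, Ndufa7, Cox4i2 and Ndufa4l2 cross one.

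The differences were small in size. The median absolute difference was 0.109, against 0.178 over all genes tested, and 59 of the 75 genes (78.7%) differed by under 0.25, against 63.5% of all genes. The 95% interval lay wholly inside 2-fold in either direction for 71 genes (94.7%, against 83.5%). The spread among replicates was small as well, with a median SD of 0.109 over dorsal and 0.138 over ventral arrays, against 0.220 and 0.233 for all genes. Ndufa5, a subunit of the arm of complex I that reduces ubiquinone, was the most even gene of the family, with an SD of 0.0269 over the 6 arrays, and Cox7a1 the least even, with 0.767.

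The probe sets of the family were also brighter than most, with a median level of 8.67 against 6.06 for the other tested genes, and brighter probe sets differed less throughout the array. Among genes at a level of 9 and above, the median absolute difference was 0.0757 for 35 family members and 0.116 for 450 other genes. Between 7 and 9 it was 0.106 for 21 members and 0.157 for 2805 other genes. Below 7 it was 0.249 for 19 members and 0.190 for 8698 other genes, so the dim members did not show smaller differences than genes of like level. An unadjusted p under 0.05 was found for 4 of the 19 members below 7 (21.1%, against 11.6% of the other genes there), 2 of the 21 between 7 and 9 (9.52%, against 8.91%) and 0 of the 35 at 9 and above (0 called by limma, against 5.11% of the other genes at an unadjusted p under 0.05). Below 9, the members' share was not under that of the other genes. These bands were set after the values were seen, and the differences between members and other genes within a band were not tested.

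**Figure D2:**
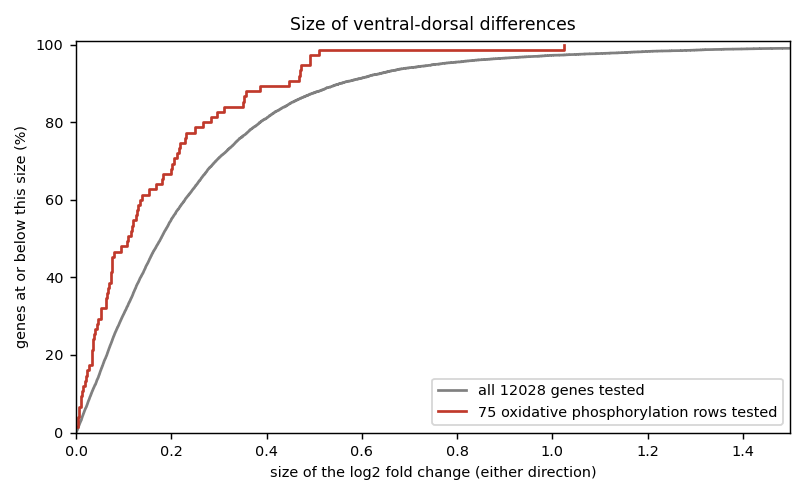
Share of genes (vertical axis, percent) whose absolute ventral minus dorsal difference (log2, horizontal axis) is at or below a given size, for the 75 tested oxidative phosphorylation genes and for all 12028 genes tested. The red curve lies to the left, with a median of 0.109 against 0.178, and its last step is Cox7a1 at 1.02.

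Complex I, NADH dehydrogenase, takes electrons from NADH at the tip of its matrix arm. Its 32 tested subunits had a median difference of −0.0238, with 13 positive and 19 negative, and 28 of them were under 0.25 in size. The medians of the 3 pairs were 0.0316, −0.0698 and −0.0858, so the pairs did not share a sign. By part of the complex, the median was −0.0440 over 8 subunits of the NADH-oxidising module, 0.0103 over 3 of the ubiquinone-reducing module and −0.0345 over 17 of the membrane arm. The 4 other accessory subunits (Ndufa6, Ndufa7, Ndufa9 and Ndufab1) had a median of 0.280, with pair medians of 0.728, −0.101 and 0.0484.

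Ndufv1, the subunit that binds NADH and the flavin cofactor, had the lowest difference of complex I. It measured 7.25, 7.11 and 6.96 on dorsal arrays and 6.55, 6.48 and 6.81 on ventral arrays. All 3 ventral arrays lay below all 3 dorsal arrays, although the replicate 3 pair differed by only −0.15. The difference was −0.49 ± 0.19 (SE; limma unadjusted p = 0.0422, adjusted p = 0.441). Ndufs1, the largest iron-sulfur subunit of the same module, measured 6.56, 6.33 and 6.87 in dorsal and 6.19, 6.66 and 6.89 in ventral tissue, overlapping fully at a difference of −0.002 ± 0.20. Ndufs7, which carries the last iron-sulfur cluster before ubiquinone, measured 6.54, 6.70 and 6.70 dorsally and 6.58, 6.59 and 6.35 ventrally (−0.14 ± 0.18). Neither of these core subunits kept the tissues apart, and whether they differ from Ndufv1 was not tested. Ndufv2, its partner in the NADH-oxidising module, differed by −0.04 ± 0.17.

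Among the accessory subunits, Ndufb3, a small protein of the membrane arm, measured 7.62, 7.79 and 7.75 in dorsal and 8.18, 8.33 and 8.05 in ventral tissue. The ventral arrays lay above the dorsal ones in every pair, by 0.47 ± 0.17 (SE; limma unadjusted p = 0.0339, adjusted p = 0.412). Ndufa7 had the highest difference of the complex, 0.47 ± 0.28, from 7.42, 7.76 and 7.71 in dorsal and 8.61, 8.14 and 7.55 in ventral tissue. Its arrays overlapped, as ventral 3 lay within the dorsal range, and its interval reached past 2-fold. Ndufa9 was the third gene of complex I without overlap, at 7.23, 7.32 and 7.30 against 6.90, 7.10 and 7.17 (−0.23 ± 0.17). Ndufab1, the mitochondrial acyl carrier protein, measured 7.32, 7.57 and 6.85 in dorsal and 8.02, 7.59 and 7.18 in ventral tissue, positive in every pair but overlapping (0.35 ± 0.20, limma adjusted p = 0.617). Ndufa6 measured 8.87, 9.96 and 9.32 against 9.63, 9.60 and 9.55 (0.21 ± 0.25), with the ventral arrays inside the dorsal range. The other membrane arm subunits spanned −0.18 (Ndufb1) to 0.18 (Ndufa3). Ndufs3 and Ndufb11 lay below the filter level and were not tested, with means of 4.30 and 4.37 in dorsal and 4.38 and 4.36 in ventral tissue.

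Complex II, succinate dehydrogenase, is both an enzyme of the tricarboxylic acid cycle and an entry point of the respiratory chain. Its median difference of −0.143 was the lowest of the 5 complexes, and the pair medians of −0.198, −0.212 and −0.0416 were all negative. It rests on 4 genes. Sdhb, the iron-sulfur subunit, measured 9.48, 9.71 and 9.48 in dorsal and 9.25, 9.41 and 9.08 in ventral tissue, without overlap (−0.31 ± 0.17 SE, limma adjusted p = 0.596). Sdhd, a membrane anchor, measured 7.45, 7.20 and 7.18 dorsally and 6.98, 7.08 and 7.16 ventrally, again without overlap, although the replicate 3 pair differed by only −0.03 (−0.21 ± 0.18). Sdha, the flavoprotein that oxidises succinate, measured 8.23, 8.04 and 8.37 against 8.06, 8.03 and 8.31 (−0.08 ± 0.17), and its ranges overlapped. The other anchor, Sdhc, measured 7.57, 7.64 and 7.53 against 7.78, 7.33 and 7.70 (0.02 ± 0.19). Of the cell type lists, the sclerotome and cartilage, erythroid and neuronal lists also had negative medians (−1.26, −0.559 and −0.516). In these lists 9 of 10, 10 of 10 and 7 of 11 tested genes were negative, so the neuronal list was mixed. The macrophage, endothelial, striated muscle, smooth muscle and coelomic epithelium lists had positive medians. In these 14 of 14, 10 of 13, 6 of 9, 9 of 10 and 7 of 7 tested genes were positive. The part of any cell type in complex II was not tested.

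Of the factors that build complex II, Sdhaf3 and Sdhaf4 had an unadjusted p under 0.05. Sdhaf3, which helps mature the iron-sulfur subunit, measured 6.68, 6.36 and 5.37 in dorsal and 6.21, 5.72 and 4.95 in ventral tissue. Each ventral array lay below its dorsal partner, by 0.51 on average (difference −0.51 ± 0.17 SE, limma unadjusted p = 0.0232, adjusted p = 0.352), while both replicate 3 arrays were the lowest of their tissue. This rests on pairing the replicates: without the replicate block the SE was 0.41, the unadjusted p 0.248 and the adjusted p 0.766. Sdhaf4, which acts on the flavoprotein subunit, ran the other way, at 7.09, 6.93 and 6.96 against 7.59, 7.46 and 7.27 (0.45 ± 0.17, limma unadjusted p = 0.0385, adjusted p = 0.433). Sdhaf1 differed by −0.28 ± 0.18 and Sdhaf2 by −0.17 ± 0.29. The 4 factors thus had no common sign.

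**Figure D3:**
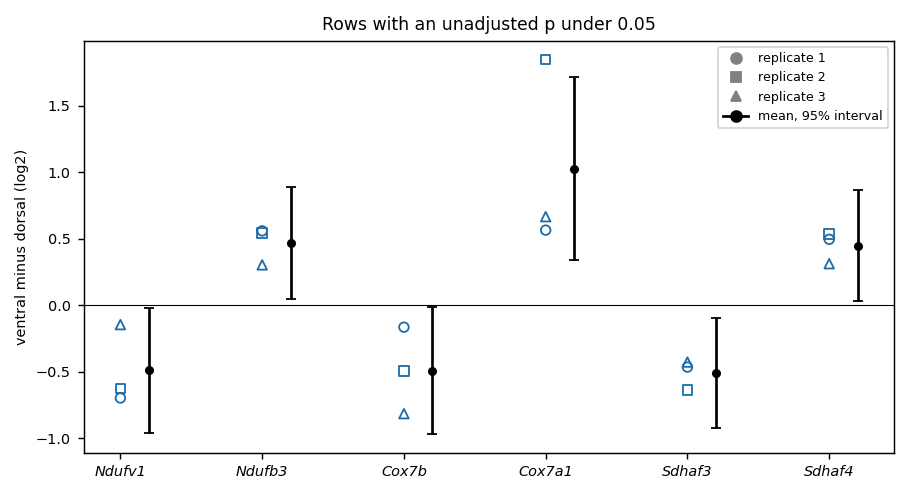
Ventral minus dorsal difference (log2, vertical axis) of each replicate pair for the 6 genes with an unadjusted p under 0.05; open symbols are single pairs, and filled points with bars are the limma estimate and its 95% interval. Every pair has the sign of its gene's estimate, and the replicate 2 pair of Cox7a1 stands at 1.85 against 0.56 and 0.67 for the others.

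Complex III, the cytochrome bc1 complex, had a median difference of −0.0761 over 7 subunits. The Rieske iron-sulfur protein Uqcrfs1 was the lowest of them, at 6.76, 7.17 and 6.98 in dorsal and 6.73, 6.88 and 6.50 in ventral tissue (−0.27 ± 0.18 SE). The core proteins Uqcrc1 and Uqcrc2, which scaffold the matrix side, differed by −0.13 ± 0.17 and −0.12 ± 0.17. Uqcrc1 measured 8.17, 8.19 and 8.02 dorsally and 8.10, 8.10 and 7.79 ventrally, and Uqcrc2 8.78, 8.68 and 8.72 against 8.70, 8.63 and 8.49. All 3 genes had the negative sign in every pair, yet the dorsal and ventral ranges overlapped in each. The small subunits had a median of 0.113, with Uqcr11 the highest at 9.95, 10.09 and 9.94 against 10.46, 10.30 and 10.11 (0.30 ± 0.18, limma adjusted p = 0.641). Uqcr11, a supernumerary subunit, was the only one of complex III whose arrays did not overlap. Uqcrq followed at 0.22 ± 0.17, Uqcrh at 0.01 ± 0.17 and Uqcr10 at −0.08 ± 0.21. The complex III median depended on the replicates left in: it was −0.136 without replicate 1 and 0.0350 without replicate 2.

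**Figure D4:**
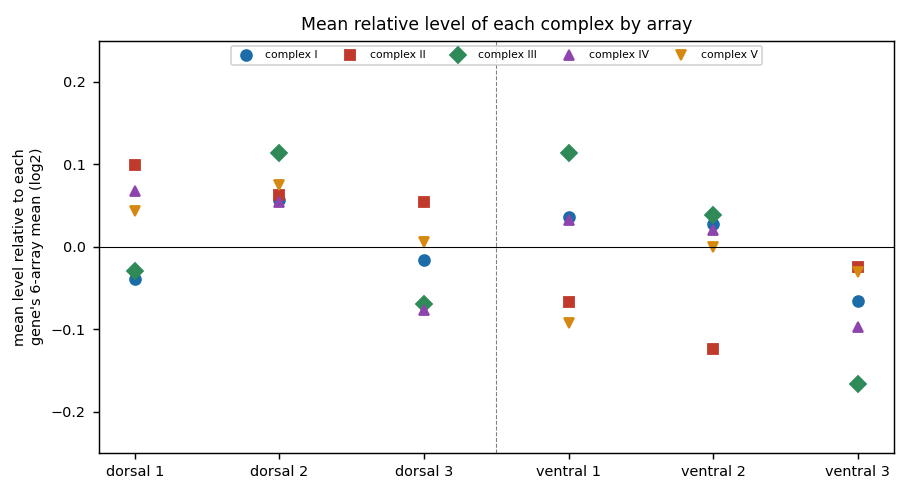
Mean level of the tested subunits of each complex on each array (vertical axis, log2, after subtracting every gene's own average across arrays). All points lie between −0.167 (complex III, ventral 3) and 0.114 (complex III, dorsal 2), for complexes I, III and IV both tissues span zero, and for complexes II and V the dorsal points lie above the ventral ones, a pattern given with no test.

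Complex IV, cytochrome c oxidase, held the widest range, from −0.49 to 1.02, around a median of −0.00318 over 15 subunits. The 9 subunits or isoforms found in most tissues ran from −0.49 to 0.20, and the 5 restricted or oxygen-regulated isoforms that were tested ran from −0.47 to 1.02. Cox4i1, the ubiquitous form of the regulatory subunit IV, measured 10.06, 10.10 and 10.20 in dorsal and 10.38, 10.23 and 10.36 in ventral tissue, all ventral arrays above all dorsal ones but by only 0.20 ± 0.17 (SE). Cox5a, another nuclear subunit that surrounds the catalytic core, went the other way without overlap, at 9.87, 9.84 and 9.83 against 9.68, 9.67 and 9.50 (−0.23 ± 0.17). Cox7b had the lowest difference of the complex. It measured 5.69, 4.995 and 5.62 dorsally and 5.53, 4.50 and 4.81 ventrally, ranges that overlap although each pair was negative (−0.49 ± 0.20, limma unadjusted p = 0.0451, adjusted p = 0.453). Without the replicate block its unadjusted p was 0.144. The ubiquitous Cox6a1 (11.55, 11.53 and 11.63 against 11.55, 11.68 and 11.47) differed by −0.003 ± 0.17, and Cox6b1 (10.03, 10.18 and 9.78 against 10.19, 10.14 and 9.99) by 0.11 ± 0.17. Ndufa4, once counted in complex I and now placed in complex IV, differed by 0.07 ± 0.17.

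Cox7a1, the isoform of subunit VIIa typical of heart and skeletal muscle, had the largest difference of the whole family. It measured 4.42, 4.59 and 4.39 in dorsal tissue, with a mean of 4.47 under the filter level of 4.52, and 4.98, 6.44 and 5.06 in ventral tissue. All 3 ventral arrays lay above all 3 dorsal arrays, with ventral 2 far above the other ventral arrays. Cox7a1 was the one member that entered the test only through its higher tissue, and no exact fold is given. The difference of the deposited values was 1.02 ± 0.28 (SE), and it did not pass the test (limma unadjusted p = 0.0101, adjusted p = 0.257, over alternatives 0.222 to 0.496). Without replicate 2 it was 0.61 ± 0.25 (limma adjusted p = 0.496). A difference of this size or more in either direction was found in 2.67% of all genes tested, and a positive one in 1.54%. These shares cover genes of all levels and are no test of Cox7a1. Cox7a1 is dim, and the median absolute difference of other genes was 0.190 below a level of 7, against 0.116 at 9 and above. Its ubiquitous counterpart Cox7a2 measured 8.87, 9.37 and 9.07 dorsally and 9.14, 8.99 and 8.99 ventrally, overlapping at −0.07 ± 0.20.

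Muscle genes were read beside Cox7a1 because that isoform belongs to muscle. The mean of the 9 tested striated muscle genes was 4.84, 5.10 and 5.40 on dorsal and 5.65, 5.50 and 5.08 on ventral arrays, which overlap, and 2 of the 9 had dorsal means below the filter level. None was called by limma, 6 were positive and 3 negative, and 2 had an unadjusted p under 0.05, in opposite directions. The lowest p belonged to Des, the muscle intermediate filament desmin, at 3.70, 4.80 and 3.68 dorsally and 4.97, 5.74 and 4.82 ventrally (1.12 ± 0.18 SE, limma adjusted p = 0.0721), and with a dorsal mean of 4.06 it too entered the test only through ventral tissue. The other was Tnnc1, a troponin C gene, at 4.97, 4.70 and 6.30 dorsally and 4.23, 4.63 and 4.72 ventrally (−0.80 ± 0.30, unadjusted p = 0.0339). Cox7a1, Des and Actc1 were highest on ventral 2, and Myf5, Acta1, Tnnt1 and the list mean on ventral 1. Tnnt2 was highest on ventral 3, Myl1 on dorsal 2, and Myog and Tnnc1 on dorsal 3. The mean of the 10 smooth muscle and pericyte genes was 6.12, 6.47 and 5.69 in dorsal and 7.82, 6.996 and 6.46 in ventral tissue, highest on ventral 1. In that list Rgs5, a pericyte gene, was called ventral (2.18 ± 0.24, limma adjusted p = 0.0258, and 0.0732 without pairing the replicates). Like Cox7a1, Rgs5 was highest on ventral 2 (8.91). Acta2, Tagln, Cnn1, Myh11, Myl9, Pdgfrb and Mcam were highest on ventral 1, Cspg4 on dorsal 2 and Notch3 on dorsal 3. The part of muscle or mural cells in the Cox7a1 values was not tested.

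The promoters of Cox7a1 and Cox7a2 are shown because these isoforms of one subunit had the most unlike differences. Each run is the 250 bases before the RefSeq start (GRCm38.p6), on the strand of the gene. Neither holds any of the 4 motifs searched, so nothing is in capitals.
Cox7a1, plus strand, chr7:30183921-30184170: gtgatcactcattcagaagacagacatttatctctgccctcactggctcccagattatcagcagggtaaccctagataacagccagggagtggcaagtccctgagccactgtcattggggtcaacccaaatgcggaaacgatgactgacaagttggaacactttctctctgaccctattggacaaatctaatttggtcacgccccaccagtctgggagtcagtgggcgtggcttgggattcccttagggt
Cox7a2, minus strand, chr9:79759854-79760103: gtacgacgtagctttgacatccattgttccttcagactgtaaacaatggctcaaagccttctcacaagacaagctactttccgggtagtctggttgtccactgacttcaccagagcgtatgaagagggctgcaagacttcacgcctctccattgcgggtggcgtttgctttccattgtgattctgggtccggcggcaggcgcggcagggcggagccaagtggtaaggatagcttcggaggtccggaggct
The GC content was 51.2% for Cox7a1 and 54.8% for Cox7a2. No factor's binding was measured at either promoter.

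**Figure D5:**
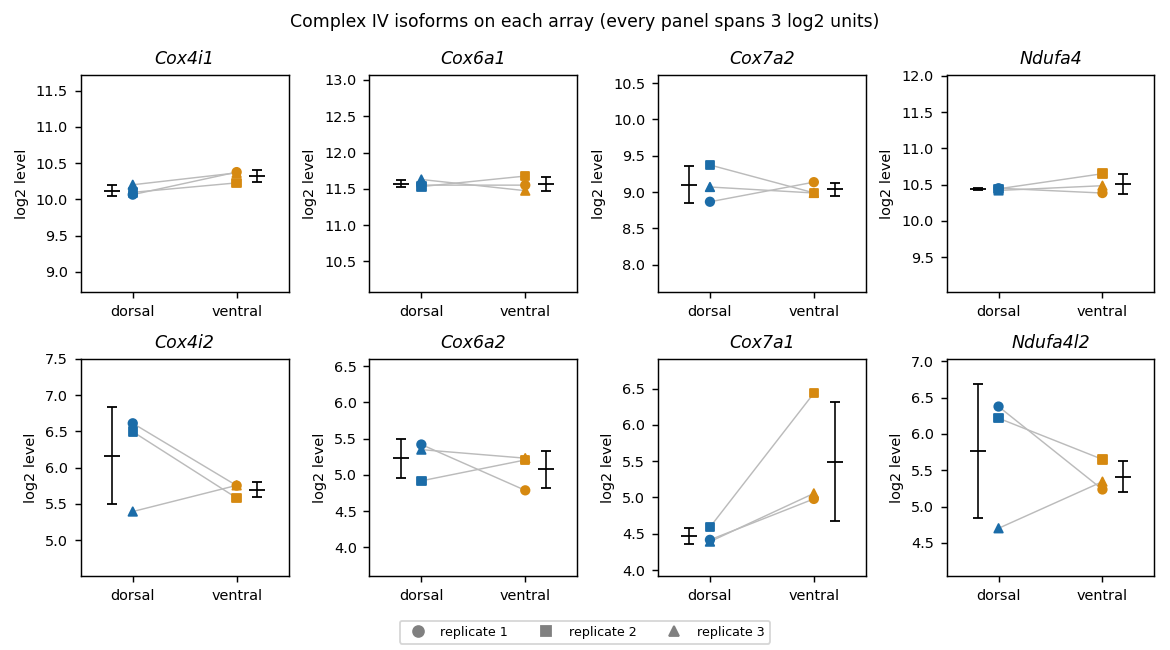
Log2 level on each array (vertical axes, each spanning the same range) of 4 complex IV subunits found in most tissues (top) and their restricted or oxygen-regulated counterparts (bottom); lines join arrays of the same replicate number, and bars show the mean and SD of 3 arrays. Cox7a1 is the one bottom gene whose tissues do not overlap, and dorsal 3 is the lowest dorsal array for Cox4i2 and Ndufa4l2.

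Cox4i2 and Ndufa4l2, isoforms known to respond to low oxygen, had like profiles. Cox4i2 measured 6.61, 6.49 and 5.39 in dorsal and 5.75, 5.58 and 5.75 in ventral tissue. Ndufa4l2 measured 6.38, 6.22 and 4.70 dorsally and 5.24, 5.65 and 5.34 ventrally. In both genes dorsal 1 and dorsal 2 lay above every ventral array, while dorsal 3 lay below them. The differences were −0.47 ± 0.29 (SE) and −0.36 ± 0.34, with limma adjusted p of 0.645 and 0.798, and both intervals reached past 2-fold. Without replicate 3 they were −0.89 ± 0.23 and −0.86 ± 0.26 (limma adjusted p = 0.269 and 0.338), and without replicate 1 that of Ndufa4l2 turned to 0.04 ± 0.33. Rgs5 was also lowest on dorsal 3, at 6.37, 6.37 and 5.31 dorsally, but was higher on all ventral arrays (7.94, 8.91 and 7.75). The mean of its smooth muscle and pericyte list was lowest on dorsal 3 as well (5.69). Among the dorsal arrays, dorsal 3 was also the lowest for Acta2, Tagln, Cnn1, Myl9, Pdgfrb, Cspg4 and Mcam of that list. Myh11 (4.79) and Notch3 (6.09) went the other way, with dorsal 3 their highest dorsal array. The part of any cell type or of oxygen in the Cox4i2 and Ndufa4l2 values was not tested.

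The remaining restricted isoforms showed little. Cox6a2, the muscle form of subunit VIa, measured 5.42, 4.92 and 5.35 in dorsal and 4.79, 5.21 and 5.23 in ventral tissue (−0.15 ± 0.22 SE), so its sign was opposite to that of the muscle isoform Cox7a1. Cox6b2, the testis form of subunit VIb, measured 7.65, 7.58 and 7.52 against 8.07, 7.85 and 7.44 (0.20 ± 0.19). Cox7b2, another testis form, lay far below the filter level in both tissues, at 2.20 ± 0.14 (SD) and 2.22 ± 0.06, and was not tested. Cox7a2l, a relative of subunit VIIa, measured 4.72, 5.20 and 5.54 against 5.52, 4.79 and 5.26 (0.04 ± 0.27), with the order of the tissues changing from pair to pair. It is described as a factor that joins complexes III and IV into supercomplexes, a role not measured in these C57BL/6 embryos.

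Complex V, the ATP synthase, had a median difference of −0.0534 over 12 subunits. Of these, 10 were negative (83.3%, against 52.3% over all genes), and all but 1 of the 12 were under 0.25 in size (91.7%, against 63.5%). The pair medians were −0.0861, −0.0813 and 0.0186, so by median the pairs did not share a sign. By mean they did. Relative to each gene's own average, the mean was 0.0428, 0.0753 and 0.00605 on dorsal arrays. It was −0.0927, −0.00034 and −0.0312 on ventral arrays, lower in every pair. This pattern was not tested. The 5 subunits of the catalytic F1 head stayed close to level, from −0.12 to 0.02. Atp5a1, the alpha subunit, measured 9.99, 10.06 and 10.30 in dorsal and 9.92, 9.93 and 10.14 in ventral tissue (−0.12 ± 0.17 SE). Atp5b, the catalytic beta subunit, measured 9.78, 9.95 and 10.03 against 9.71, 9.91 and 10.09 (−0.02 ± 0.17). For both, replicate 3 was the highest of its tissue, and the change from replicate to replicate was as large as that between tissues. Atp5d, the delta subunit of the head, had the highest difference of the complex, 0.02 ± 0.17.

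Atp5g3, which encodes the c subunit of the membrane rotor, had the lowest. It measured 9.07, 9.14 and 9.14 in dorsal and 8.32, 9.01 and 8.95 in ventral tissue. The arrays did not overlap, but ventral 1 alone lay far from the rest (−0.35 ± 0.20 SE, limma adjusted p = 0.617), with pair differences of −0.75, −0.12 and −0.19. Identical mature protein comes from Atp5g1 and Atp5g2, so the summed transcript of the c subunit is not given here. The peripheral stalk subunits Atp5pb, Atp5j and Atp5o differed by 0.01 ± 0.17, −0.04 ± 0.17 and −0.22 ± 0.19. Atp5h, of the same stalk, lay far below the filter level at 1.94 ± 0.28 (SD) in dorsal and 2.29 ± 1.07 in ventral tissue and was not tested. Of the pseudogenes, Ndufs5-ps differed by 0.25 ± 0.25 (SE), and Atp5c1-ps was below the filter. Subunit genes of this family have many processed copies, and whether a probe set also detects a copy was not tested.

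Other genes of the pathway were read from lists chosen with earlier results known. Of the subunits or linked proteins outside the prefixes, cytochrome c1 (Cyc1) differed by 0.05 ± 0.17 (SE), Cox8a by −0.04 ± 0.18 and the ATP synthase inhibitor Atpif1 by −0.01 ± 0.17. Of the 13 subunits encoded by mitochondrial DNA, 0 were named in the platform table and none is analysed here. Assembly factors had 0 of 45 tested genes called by limma and 5 at an unadjusted p under 0.05 (11.1%, against 10.7% of all genes tested), with a median of −0.0638. The lowest p among them was that of Nubpl, which delivers iron-sulfur clusters to complex I. It measured 5.40, 6.42 and 5.91 in dorsal and 4.88, 4.99 and 5.35 in ventral tissue, without overlap (−0.84 ± 0.24, limma adjusted p = 0.266). The others were Sdhaf3, Sdhaf4, Cox18 (−0.52 ± 0.21) and Tmem70 (−0.57 ± 0.23), which serve complexes II, IV and V.

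Neighbouring mitochondrial pathways were also without a call. The tricarboxylic acid cycle had 0 of 12 genes called and 1 at an unadjusted p under 0.05 (8.33%, against 10.7% of all genes), the succinyl-CoA ligase subunit Suclg2, at 6.70, 6.96 and 7.66 dorsally and 7.98, 7.75 and 7.68 ventrally (0.70 ± 0.26 SE, limma adjusted p = 0.424). The regulators of mitochondrial biogenesis had 0 of 13 called and 1 at an unadjusted p under 0.05 (7.69%). That gene was Tfam, which packages mitochondrial DNA and helps start its transcription. Tfam measured 5.69, 6.02 and 5.47 dorsally and 5.04, 4.63 and 5.46 ventrally (−0.68 ± 0.28, limma adjusted p = 0.460), with replicate 3 level between the tissues. Coenzyme Q synthesis had 0 of 10 called, carriers and porins 0 of 5 and mitochondrial import 0 of 15, each with 0 at an unadjusted p under 0.05. In the first of these Coq2 had the lowest p (0.80 ± 0.39, limma adjusted p = 0.546), through ventral 1 at 7.68 against 5.24 to 5.69 on the other 5 arrays. Tomm20, an import receptor of the outer membrane, had the lowest p of the import list (0.39 ± 0.18, limma adjusted p = 0.506). The carriers and porins were all positive, with Slc25a4, the ADP/ATP carrier, at 0.18 ± 0.17.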

How the data were processed

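Values are the deposited log2 levels, 1 per probe set and array. Affymetrix Expression Console and RMA (background correction, quantile normalization between arrays, probe summary) are named in the submitters' processing notes. Their versions are not given, nor is a build. Quantile normalization would hide a change shared by most genes, and amplification of little RNA adds spread at low levels. The platform table names 1 gene for 24015 of the 24973 probe sets, and 958 are unnamed here.

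Ventral minus dorsal was estimated by limma 3.58.1 under R 4.3.3 (lmFit, then eBayes with no trend). Replicate number entered as a fixed block, tests were two-sided, and p-values were adjusted by Benjamini-Hochberg across 12028 genes, those with 1 symbol whose mean reached 4.52. Tests had 6.41 degrees of freedom (2 residual). All p of single genes come from this fit unless another is named. The script was tested on simulated data. Intervals are 95%. The number of arrays limits the precision: the median SE was 0.177 for the members and 0.196 for all genes. Array medians were 4.49 to 4.55, and arrays correlated by 0.956 to 0.976 over probe sets.

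Replicates were blocked since, per the labels, both tissues came from the same embryos. The labels do not say that a number marks an embryo. After subtracting tissue means, same-numbered arrays correlated by 0.0992, 0.0763 and 0.226 and other pairs by −0.153 to 0.0805, so the pairing is weakly visible. If arrays shared embryos or were technical repeats, p-values measure only the spread between these samples.

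The members, lists, roles and motifs were chosen with earlier results of these data known, so no list is tested, and list counts are read against the shares over all genes. The genes named are the highest and lowest of each complex, core subunits and isoforms set by name, members with an unadjusted p under 0.05, members without overlap, and from each other list those called or with the lowest p. Members without overlap, the factors of the motifs, and genes given only as part of a count or range were added after values were seen. So were genes named only for the array on which they were highest or lowest. Of the marker lists, genes are named only beside a result. Alternatives were no block, no or a stricter filter, median shift, cyclic loess, an intensity trend, each pair left out, and another choice of members.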

Additional observations from a re-analysis of the deposited data

How the results depend on the processing

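No member passed the threshold under any of the alternatives run (lowest adjusted p 0.222), so all 663 values of the 75 members over them stayed short of it. Members with an unadjusted p under 0.05 numbered 6, against 3 with the filter at the 75th percentile, which tests fewer genes, 4 without the replicate block and 2 to 5 with a pair left out. Genes past the threshold over the whole array numbered 62, against 10 with no brightness filter (9 of them shared), 94 with an intensity trend and 48 to 75 with a pair left out. Without the replicate block 59 were called, 45 of them shared, so the pairing changed which genes passed more than how many. The median of complex IV was −0.00318, and 0.0692 with the filter at the 75th percentile, which drops several dim isoforms, 0.00854 with cyclic loess and −0.00614 to 0.0570 with a pair left out. Complex III ran from −0.136 to 0.0350 with a pair left out. Its sign and that of complex IV are therefore not settled. The cause was not tested. The medians of complexes I, II and V kept a negative sign under these alternatives, and that of all members ran from −0.0678 to −0.0166.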
